A study of Mus musculus with 2 samples.

Results

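Natural killer cells of the injured mouse kidney were taken from 2 single-cell libraries as barcodes with at least 1 unique molecular identifier (UMI, a counted RNA molecule) of Ncr1 or Klrb1c, none of Cd3d, Cd3e, Cd3g or Cd8b1, and fewer than 5 UMIs summed over C1qa, C1qb and C1qc. Ncr1 encodes the activating receptor NKp46, and Klrb1c encodes NK1.1. The Cd3 genes and Cd8b1 mark T cells, and the C1q genes mark macrophages. The rule found 66 cells among 19478 kept cells, 18 of 9452 in the control library and 48 of 10026 in the haplodeficient library. The cells were chosen by these measured UMIs, so the levels of these genes are a description only.

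Both libraries came from kidneys collected at day 14 after unilateral ischaemia and reperfusion injury, with 4 tamoxifen injections in each group. The control mice were Cre-, and whether they carried a floxed allele is not given in the labels. The haplodeficient mice were Cdh5-CreERT2; Phd3f/+, in which 1 Phd3 allele is floxed and Cre, driven by the endothelial cadherin promoter Cdh5, acts once tamoxifen is given. There was 1 library per group, both in batch 1, and the number of animals behind each library is not given in the labels, so no test between groups was possible and every interval below covers counting error only.

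Natural killer cells are innate lymphocytes that kill stressed or infected cells by releasing perforin and granzymes, and that secrete chemokines and interferon gamma. Their activity is set by the balance of activating and inhibitory receptors, many encoded in the natural killer gene complex on chromosome 6 of the mouse, and passed on through adaptors such as Tyrobp and Fcer1g. Group 1 innate lymphoid cells (ILC1) share the receptors Ncr1 and Klrb1c, but are tissue resident and usually carry less perforin and granzyme, with Il7r and Itga1 among their usual genes and Eomes and Itga2 more typical of natural killer cells.

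The promoters of Ncr1, which chose the cells, and of Gzma and Gzmb, granzyme genes whose UMIs were found in the same cells, are shown as examples from a larger set that was searched. Each line holds the 250 bases before the RefSeq start (GRCm38.p6), 5′ to 3′ on the gene's strand, with capitals at matches to a T-box motif (TCACAC or its reverse complement GTGTGA) or a RUNX motif (TGTGGT or ACCACA). Both strands were searched, and the motifs share no match. Ncr1 lies at chr7:4337724-4345164 (+), Gzma at chr13:113093825-113100981 (-) and Gzmb at chr14:56258838-56262260 (-) in GENCODE on GRCm38.
Ncr1, chr7:4337465-4337714 (+): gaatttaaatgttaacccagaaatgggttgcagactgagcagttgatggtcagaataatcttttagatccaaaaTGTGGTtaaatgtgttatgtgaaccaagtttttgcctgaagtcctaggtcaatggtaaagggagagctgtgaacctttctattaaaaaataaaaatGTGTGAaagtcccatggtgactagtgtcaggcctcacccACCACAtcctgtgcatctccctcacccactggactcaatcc
Gzma, chr13:113100982-113101231 (-): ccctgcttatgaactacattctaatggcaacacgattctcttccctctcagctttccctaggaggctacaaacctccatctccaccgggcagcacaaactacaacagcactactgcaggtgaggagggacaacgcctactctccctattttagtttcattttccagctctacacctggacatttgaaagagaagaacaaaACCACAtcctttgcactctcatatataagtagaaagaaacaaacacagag
Gzmb, chr14:56262335-56262584 (-): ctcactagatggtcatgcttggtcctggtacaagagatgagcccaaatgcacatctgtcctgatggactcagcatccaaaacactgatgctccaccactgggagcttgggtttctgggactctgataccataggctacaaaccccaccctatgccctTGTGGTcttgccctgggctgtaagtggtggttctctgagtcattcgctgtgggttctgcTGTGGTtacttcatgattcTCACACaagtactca
The Ncr1 window holds 1 T-box and 2 RUNX matches, the Gzma window 1 RUNX match, and the Gzmb window 1 T-box and 2 RUNX matches. Of 32851 mouse promoter windows of the same length, 12.3% hold the T-box letters and 14.0% the RUNX letters, so single matches are common. An ETS motif (CCGGAAG or CTTCCGG), held by 6.91% of windows, is in none of these 3 windows. Of windows searched but not shown, those of Prf1 and Klrb1c each hold 0 T-box matches and 1 RUNX match. Those of Nkg7 and Xcl1 each hold 1 T-box and 1 RUNX match. All matches are letters in a sequence and were not tied to binding.

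The targeted gene, Egln3 (which encodes PHD3, an oxygen-sensing prolyl hydroxylase), was detected in both libraries. Levels as CPM (a gene's summed UMIs scaled to a fixed total of 1000000) were 17.7 (95% Poisson interval 14.1 to 22.0; 401 cells) in control and 14.9 (12.5 to 17.6; 824 cells) in haplodeficient cells with Cdh5 and Kdr or Emcn UMIs. These intervals overlap. The kit reads the 3′ end, and whether that lies outside the floxed part is not given in the labels, so Egln3 does not check the genotype. The natural killer cells held 2 Egln3 UMIs in each library. Kept cells had a median of 9160 UMIs and 10.2% mitochondrial UMIs in control, and 5861.5 UMIs and 2.72% in the haplodeficient library. The libraries shared 28 barcodes among kept cells and 0 among the natural killer cells.

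The 2 receptor genes were found together in 34 of the 66 cells, Ncr1 alone in 15 and Klrb1c alone in 17. To check the label against genes the rule did not use, 14 genes usual for natural killer cells were counted in each cell: Gzma, Gzmb, Prf1, Nkg7, Klrd1, Klre1, Klrk1, Il2rb, Txk, Xcl1, Eomes, Tbx21, Ctsw and Ccl5. The cells fell into separate sets. In 52 cells (14 control, 38 haplodeficient) 5 to 14 of these genes had a UMI, in the other 14 cells (4 and 10) 0 to 2 had one, and no cell had 3 or 4. All 45 cells with at least 2 receptor UMIs were in the first set. Of the 21 cells with a single receptor UMI, only 7 were. Part of these 14 genes is shared with T cells. CD8 T cells under 10000 UMIs (defined below) had a Nkg7 UMI in 93.4% of control and 93.6% of haplodeficient cells. Ccl5 was found in 88.5% and 95.4% of them. Others were rarer there, such as Gzma (11.5% and 5.34%) and Klre1 (8.20% and 2.80%). The count alone cannot tell a natural killer cell from a T cell with no Cd3 UMI detected.

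**Figure D1:**
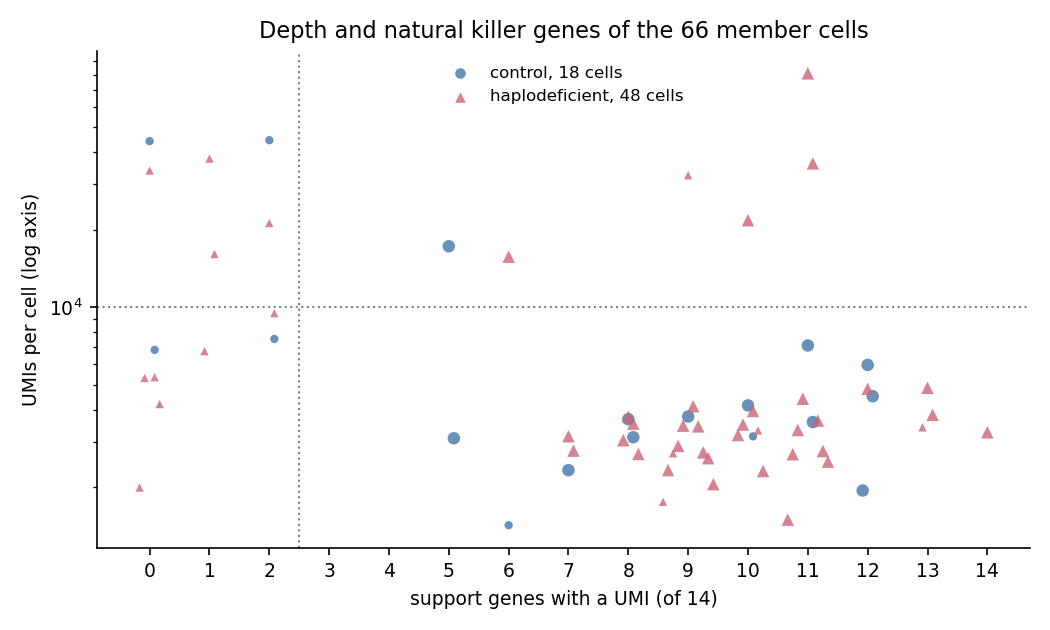
Each point is 1 of the 66 cells, placed by the number of the 14 support genes with a UMI and by its UMI total on a log axis; large points have at least 2 Ncr1 plus Klrb1c UMIs and small points 1, and points at the same number are spread sideways. The 14 cells left of the vertical dotted line have at most 2 support genes, and the 46 cells right of it and below the horizontal dotted line at 10000 UMIs are the core cells.

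Most of the 14 cells without support held genes of other cells, and not all the same ones. Their median was 25841.5 UMIs in control and 8125 in the haplodeficient library. Cd74, an antigen presentation gene listed as a dendritic marker, had at least 84 UMIs in each of the 4 control cells and 78 to 373 UMIs in 4 of the 10 haplodeficient ones. Over the 8 dendritic markers the sums were 810 and 1395 UMIs. The control cells held 2705 UMIs over 8 proximal tubule markers, but 1 cell carried 2220 UMIs of Kap and 3118 of Spp1, and the tubule sum is mostly that cell. Another haplodeficient cell held 145 UMIs of Lyz2, a myeloid gene, and 3 haplodeficient cells had no UMI of Lyz2, Cd74 or Kap and at most 3 of Spp1. The 6 stromal markers had 478 UMIs in the haplodeficient cells. None of the 12 T cell markers, such as Trac, had a UMI in them. Against the label, these cells are therefore described only as cells with a receptor UMI.

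A further 6 cells had support genes but over 10000 UMIs (1 control, 5 haplodeficient). The remaining 46 cells, with at least 3 support genes and fewer than 10000 UMIs, are called core cells. This definition was chosen after the values were seen. The core comprised 13 control cells (median 3588 UMIs) and 33 haplodeficient cells (median 3195 UMIs). Cells outside the core held 74.7% of all UMIs of the 66 cells, so sums over the 66 cells are set mostly by cells outside the core. Because membership of the core used the support genes, their presence in it is partly built in. The rule does not separate natural killer cells from ILC1, which share Ncr1 and Klrb1c, so the core can hold both.

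Of cells just outside the rule, 5 control and 7 haplodeficient cells had no receptor UMI but at least 5 support genes. A receptor UMI together with a Cd3 UMI was found in 6 and 33 cells, called receptor-bearing T cells here. Another 7 and 8 cells had a receptor UMI but at least 5 C1q UMIs.

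The rule was met by 0.190% of kept control cells (Clopper-Pearson 95% interval 0.113 to 0.301) and by 0.479% of kept haplodeficient cells (0.353 to 0.634), a ratio of 2.51 (1.44 to 4.59). Among cells with a UMI of Ptprc, the gene of the leukocyte antigen CD45, the shares were 1.03% (0.601 to 1.64; 17 of 1651 cells) and 1.07% (0.773 to 1.43; 43 of 4029 cells), a ratio of 1.04 (0.579 to 1.94). The higher share of kept cells thus went with a higher share of Ptprc-positive cells in that library, and the interval of the second ratio includes values on both sides of 1. Among Ptprc-positive cells with under 5 C1q UMIs, the shares were 1.93% (1.13 to 3.07) and 1.60% (1.16 to 2.15), a ratio of 0.830 (0.464 to 1.55), and core cells gave 0.833 (0.427 to 1.72). The direction turned with this denominator, and these intervals include 1. Core cells alone gave 0.787% (0.420 to 1.34) and 0.819% (0.564 to 1.15) of Ptprc-positive cells.

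T cell shares stood further apart on the same denominator. CD8 T cells (Cd3 and Cd8b1 UMIs, no receptor UMI) were 3.63% of Ptprc-positive control cells and 10.3% of haplodeficient ones, a ratio of 2.83 (2.15 to 3.77). CD4 T cells were 2.18% and 4.99%, a ratio of 2.29 (1.60 to 3.36). Of the cells meeting the rule and CD8 T cells together, those meeting the rule were 22.2% (13.7 to 32.8) and 9.92% (7.40 to 12.9), intervals that do not overlap. That count includes the cells without support. Supported cells alone gave 18.2% (10.3 to 28.6) and 8.02% (5.74 to 10.8), whose intervals overlap slightly. Core cells alone gave 17.1% (9.43 to 27.5) and 7.04% (4.89 to 9.74), whose intervals overlap slightly. Here core cells were limited to under 10000 UMIs, but CD8 T cells of any depth were counted. Animals and cell preparation cannot be told apart from genotype here.

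**Figure D2:**
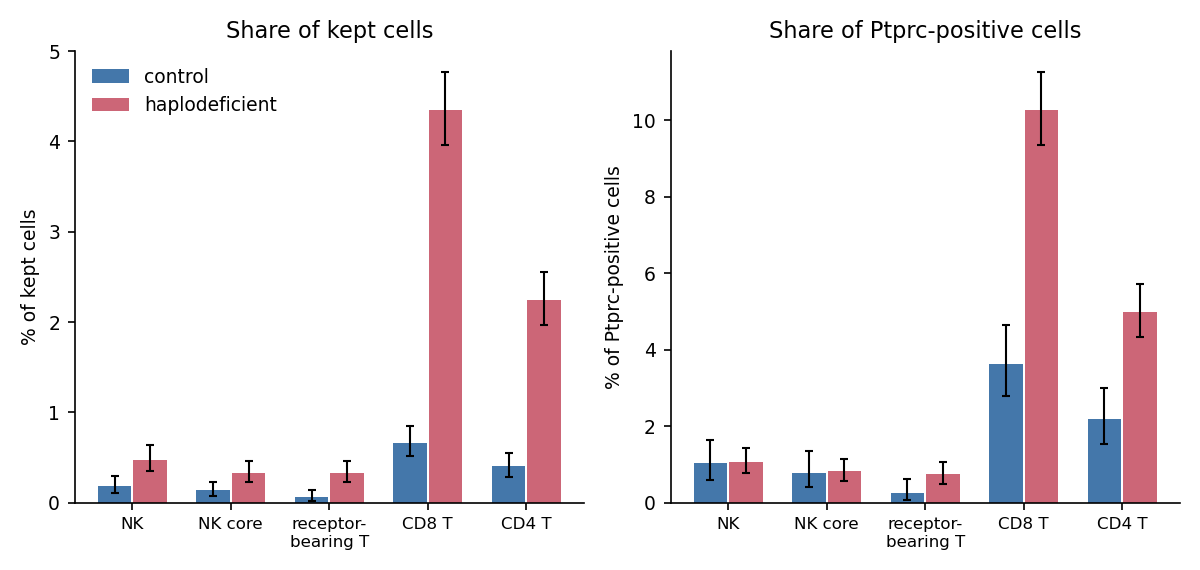
Bars are the share of kept cells (left) and of Ptprc-positive cells (right) in percent for the cells meeting the rule (NK), the core cells and 3 T cell classes in each library; error bars are Clopper-Pearson 95% intervals. The NK bars stand at 1.03% and 1.07% of Ptprc-positive cells, while the CD8 T bars stand at 3.63% and 10.3%.

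A granule gene led the genes of the 48 haplodeficient cells. Gzma, which encodes the tryptase granzyme A, had the highest level of any gene relative to the other Ptprc-positive cells of the haplodeficient library (1468 against 19.0 CPM; log2 ratio 5.94 after adding 5 CPM to each). Ncr1, Klrb1c, Prf1, Klra4, Klre1, Klrb1f, Klrd1, Txk, Klrk1 and Klra7 were also among the 25 leading genes. The other 14 included Kap, Miox, Fgg and Col3a1, genes of tubule, injured epithelium or stroma. The levels below are therefore those of core cells.

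In the core, Gzma was present in 7 of 13 control cells and 21 of 33 haplodeficient cells, at 3653 and 4495 CPM. Control cells with Gzma held 2 to 125 UMIs of it (median 6), and haplodeficient ones 4 to 52 (median 20). One control cell held 125 of that library's 175 Gzma UMIs, and without it the control level was 1192 CPM (885 to 1572). The ratio of the libraries with all cells was 1.23 (1.03 to 1.47), so its size in control rests on that cell. CD8 T cells under 10000 UMIs held 282 and 146 CPM of Gzma. Macrophages, which should lack it, had a UMI in 1 of 994 control cells and 11 of 1743 haplodeficient cells at median depths of 5809 and 6725 UMIs.

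Prf1, the gene of the pore-forming protein perforin, was present in 6 of 13 and 17 of 33 core cells, at 417 and 488 CPM, against 43.0 CPM in CD8 T cells of each library. Gzmb, which encodes the caspase-activating protease granzyme B, was present in 2 of 13 and 12 of 33 core cells, at 668 and 249 CPM. One control cell held 19 of the 32 control Gzmb UMIs, and without it the level was 310 CPM (165 to 530), which overlaps that of the haplodeficient cells. CD8 T cells held 564 and 266 CPM of Gzmb, close to the core level in the haplodeficient library. Gzmk, a granzyme gene of memory T cells, had 0 and 1 UMIs in the core against 253 and 256 CPM in CD8 T cells. With 0 UMIs the control core could still hold up to 62.6 CPM, taking 3 counts as the limit.

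Genes that protect the killer cell from its own granules were among those above CD8 T cells. Serpinb9, a granzyme B inhibitor, stood at 605 and 736 CPM in the core against 182 and 111 CPM in CD8 T cells. Serpinb6b, another serpin, stood at 334 and 583 CPM against 129 and 97.5 CPM. Nkg7, a granule membrane gene needed for release, stood at 1398 and 1846 CPM in the core and at 1401 and 1895 CPM in CD8 T cells. The death ligand gene Fasl had 7 and 19 core UMIs, at 146 and 182 CPM, below 229 and 206 CPM in CD8 T cells with overlapping intervals.

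Chemokine genes were abundant. Ccl5 (RANTES) had a UMI in all 46 core cells, with 2 to 34 UMIs per control cell (median 11) and 6 to 93 per haplodeficient cell (median 25). Its level was 3820 CPM in control and 10358 in haplodeficient core cells, a ratio of 2.71 (2.32 to 3.19), although the cells' UMI ranges overlap. Xcl1, the attractant of cross-presenting dendritic cells, was present in 13 of 13 and 26 of 33 cells at 2108 and 1836 CPM, against 330 and 412 CPM in CD8 T cells. Ccl4 stood at 1670 and 1234 CPM, but 60 of 80 control UMIs were in 1 cell, without which control was at 477 CPM. Ifng, the gene of interferon gamma, had 8 UMIs in 2 control cells and 1 UMI in 1 haplodeficient cell, against 139 and 271 CPM in CD8 T cells. Tnf had 2 and 0 core UMIs.

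Among receptors, Klrk1 (NKG2D) stood at 772 and 650 CPM in the core and 201 and 105 CPM in CD8 T cells. Klrd1 (CD94, the partner chain of the NKG2 receptors) stood at 689 and 976 CPM against 124 and 121 CPM. Klre1, a lectin-like gene of the same complex, stood at 647 and 555 CPM against 28.7 and 16.9 CPM. The Ly49 receptor genes (Klra family) were found in part of the core. At least 1 of the 11 measured was found in 9 of 13 control and 20 of 33 haplodeficient core cells, and 24 of the 46 held 2 or more. Klra7, an inhibitory member, stood at 501 and 593 CPM against 4.78 and 3.07 CPM in CD8 T cells. Klra4, an activating member, stood at 814 and 306 CPM, with 0 and 1 UMIs in CD8 T cells. Ly49 genes are near-identical copies, so the split of reads among them is uncertain.

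Adaptors and kinases went both ways against CD8 T cells: 3 of 11 with enough UMIs were higher and 2 lower past the size rule described below in the haplodeficient library (median log2 ratio -0.35), and 2 of 11 were higher and 3 lower in control (median -0.62). Over all genes with enough UMIs, 6.22% were higher and 3.88% lower in the haplodeficient library (median 0.11). In control these shares were 4.46% and 5.58% (median -0.14). Fcer1g, the shared signalling chain of NKp46 and Fc receptors, was found in all 46 core cells, at 1565 and 2181 CPM against 14.3 and 53.0 CPM in CD8 T cells. Tyrobp (DAP12) stood at 2025 and 2209 CPM, against 0 UMIs and 106 CPM. Macrophages carry Tyrobp as well, with a UMI in 97.9% and 97.3% of them. The T cell adaptor gene Lat was on the other side, with 1 and 6 core UMIs against 306 and 335 CPM in CD8 T cells.

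Transcription factors and cytokine receptors followed. Eomes was found in 3 of 13 and 12 of 33 core cells and Tbx21 (T-bet) in 4 and 18. Irf8 stood at 376 and 698 CPM against 4.78 and 19.2 CPM in CD8 T cells. Il2rb, the receptor chain for interleukin 2 and 15, stood at 689 CPM in both libraries against 153 and 143 CPM. Il12rb2, Il18r1 and Il18rap, receptor chains for the cytokines that drive interferon gamma, stood at 373, 363 and 268 CPM in haplodeficient core cells against 73.7, 80.6 and 33.8 CPM in CD8 T cells. Il1rl1, a receptor gene of group 2 innate lymphoid cells, had no UMI in the core, and none of the 14 listed genes of group 2 and 3 innate lymphoid cells met the minimum for comparison between the libraries' cores. Missing that minimum is not absence. Against CD8 T cells 1 of the 14 met it in each library and did not pass the size rule. Against T cells with a receptor UMI 1 met it and was lower past the rule.

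Markers of other cells were counted in the core as well. Trac, the constant gene of the T cell receptor alpha chain, had 0 UMIs in all 46 cells, and was found in 85.2% and 79.9% of CD8 T cells. With 0 of 46 cells the share of core cells with a UMI could still be up to 6.52%, which limits detection and not expression. Trbc1 was detected in 9 and 21 core cells and Trbc2 in 7 and 16, at 250 and 392 CPM for Trbc1 and 355 and 335 CPM for Trbc2. In CD8 T cells Trbc1 stood at 492 and 560 CPM and Trbc2 at 1224 and 1310 CPM. By cells with a UMI, Trbc1 was found in 69.2% and 63.6% of core cells and in 44.3% and 37.9% of CD8 T cells, or 23.1% and 27.3% against 25% in both with every cell thinned to 1000 UMIs. Its unthinned share of cells goes against its CPM, and no order is read from it. Trdc had 1 and 9 UMIs. The 6 stromal markers and the 6 mast and basophil markers were at 0. The 8 proximal tubule markers summed to 710 CPM in control and 28.7 CPM in haplodeficient core cells. Free RNA, profiled in barcodes of 1 to 100 UMIs, was estimated at 3.46% and 2.27% of core UMIs.

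**Figure D3:**
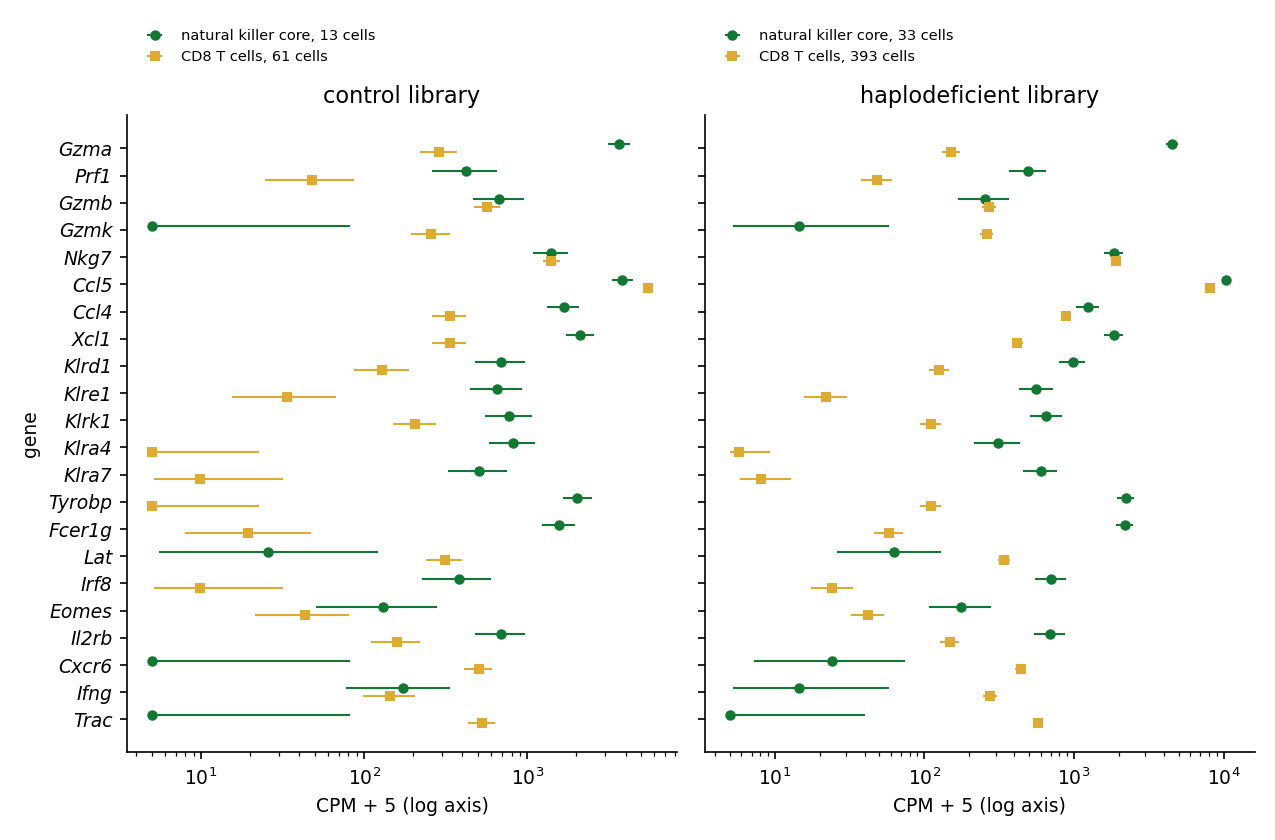
Summed CPM plus 5 on a log axis for 22 genes in core cells and in CD8 T cells under 10000 UMIs, in each library; error bars are exact Poisson 95% intervals. Klra7, Fcer1g and Gzma stand far to the right in core cells, Gzmb and Nkg7 lie close together, and Gzmk, Cxcr6 and Trac stand far to the left.

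Across all genes, a difference was called past the size rule when the log2 ratio of CPM plus 5 was at least 1 in either direction and the Poisson intervals did not overlap. Genes needed a mean of 50 CPM and 30 UMIs, and the intervals are not adjusted for the number of genes. All cells meeting the rule, unsupported ones included, gave 515 of 3571 genes against all CD8 T cells of the haplodeficient library (14.4%; 332 higher, 9.30%, and 183 lower, 5.12%) and 529 of 2635 in control (20.1%; 287 higher, 10.9%, and 242 lower, 9.18%). Core cells against CD8 T cells of the haplodeficient library gave 310 of 3070 genes (10.1%), of which 191 were higher (6.22%) and 119 lower (3.88%). In the control library 135 of 1345 genes passed (10.0%; 60 higher, 4.46%, and 75 lower, 5.58%). Of the 310 genes, 152 met the minimum in control, 133 of these had the same direction and 71 also passed there. The 8 highest in the haplodeficient library were Klra7, Klra4, Fcer1g, Klra9, Klrb1f, Clnk, Gzma and Irf8. The 8 lowest, each with 0 core UMIs, were Trac, Themis, Hist1h2ap, Ly6c2, Gm8369, S100a8, Tnf and Hist1h1b.

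In the comparisons with T cells, genes that defined the classes were left out, but the 14 support genes, which chose the core, were not. Counts of groups that hold support genes are therefore partly built in. By group, 4 of 14 granule and death genes with enough UMIs were higher past the rule than in CD8 T cells of the haplodeficient library and 1 was lower, with a median log2 ratio of -0.01 beside 0.11 over all 3070 genes. For activating receptors 3 of 9 were higher (median 1.23), and for inhibitory receptors 4 of 7 were higher and 1, Pdcd1, was lower (median 2.65). In control the counts were 3 higher and 1 lower of 10 granule and death genes (median 0.18) and 2 higher of 4 activating receptors (median 0.91), beside -0.14 over all 1345 genes. Cytokine receptors gave 4 of 10 higher and 0 lower in the haplodeficient library (median 0.83), and 3 of 8 higher and 1 lower in control (median 0.47). Of the interferon-stimulated genes 0 of 9 were higher and 4 were lower in the haplodeficient library (median -0.84), such as Ifi27l2a, at 66.9 CPM in the core and 1812 CPM in CD8 T cells. In control only 4 of these genes had enough UMIs, 2 above and 2 below, with 1 past the rule lower (median 0.08). In the haplodeficient library the residency genes of ILC1 gave 1 of 13 higher and 4 lower (median -0.65). Among the lower was Cxcr6, a chemokine receptor of tissue-resident lymphocytes, at 19.1 against 436 CPM. Control gave 1 of 10 higher and 5 lower (median -1.59). Cell division genes gave 0 of 5 higher and 2 lower in the haplodeficient library, and 0 of 6 higher and 4 lower in control. Mki67 had 0 core UMIs in both libraries.

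All cells meeting the rule gave 291 of 3549 genes past it against receptor-bearing T cells of the haplodeficient library (8.20%; 193 higher, 5.44%, and 98 lower, 2.76%). With core cells and receptor-bearing T cells under 10000 UMIs, 48 of 1061 genes passed (4.52%), 20 of them higher in the core (1.89%) and 28 lower (2.64%). Tyrobp stood at 2209 CPM in the core and 634 CPM in those cells, Ccl4 at 1234 and 297 CPM, Il12rb2 at 373 and 99.1 CPM and Klrc1 (NKG2A) at 249 and 69.3 CPM. On the other side stood S100a4 at 182 and 733 CPM and Icos, a T cell costimulatory receptor gene, at 76.5 and 366 CPM. Lower still were Mgp, at 0 and 822 CPM, Ctsl, Igfbp7, Rbpj, Ifi27l2a and Apoe. Whether RNA of other cells in the receptor-bearing T cells sets part of these values was not tested.

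Core cells were not alike. They separated by Gzma, a split chosen after its values were seen and pooled over the libraries for its number of cells: 28 cells with Gzma (7 control, 21 haplodeficient) and 18 without (6 and 12). Median UMIs were 4163 with and 3118.5 without it in control, and 2901 and 3390.5 in the haplodeficient library, so in the latter the cells without Gzma were the deeper ones. Of the 28 cells, 23 held at least 5 Gzma UMIs.

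**Figure D4:**
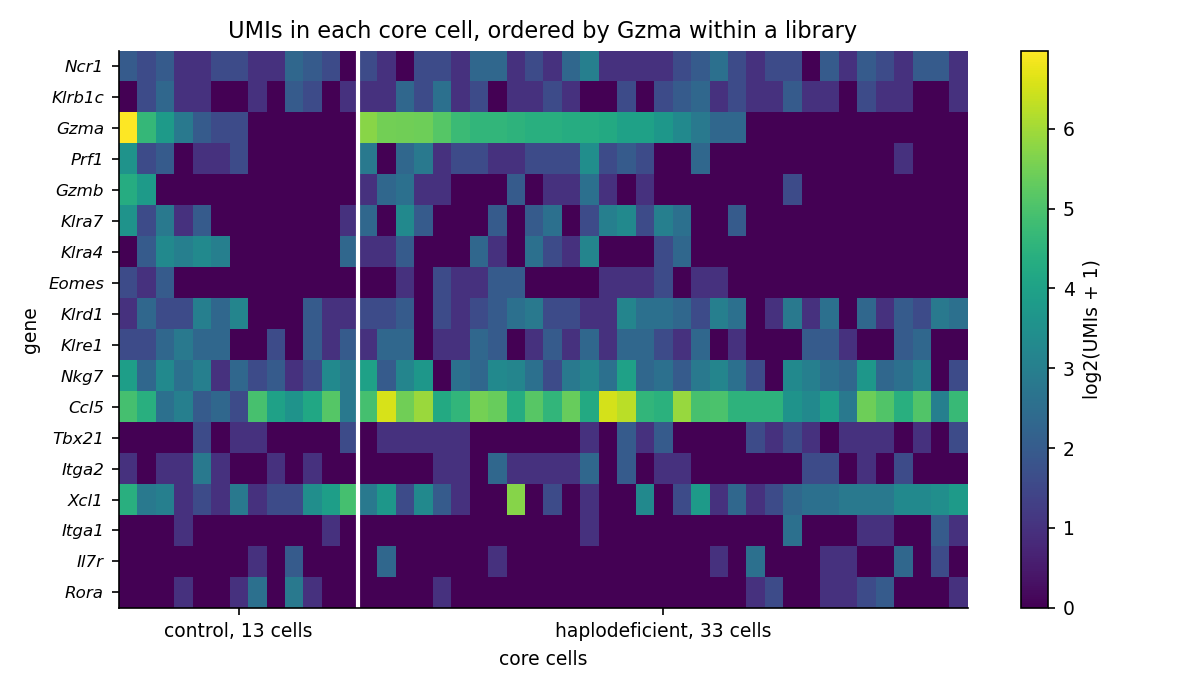
Each column is 1 core cell and each row a gene, coloured by log2(UMIs + 1), with cells ordered by Gzma within each library. Prf1, Gzmb, Klra7, Klra4 and Eomes are found mainly in columns with Gzma, and Ccl5, Nkg7 and Klrd1 in columns of both kinds.

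Among granule and death genes, 5 of 7 with enough UMIs were higher in cells with Gzma and 2 were lower, and those past the size rule were Prf1 and Gzmb, both higher. Prf1 was found in 22 of 28 cells with Gzma and 1 of 18 without, as 70 and 1 UMIs. Gzmb was found in 13 and 1 of those cells, and Klra7 in 18 and 1, as 85 and 1 UMIs. At least 1 Ly49 gene was found in 24 of 28 cells with Gzma and 5 of 18 without. Eomes was found in 15 of 28 and 0 of 18 cells, while Tbx21 was found in 11 of 28 and 11 of 18. Irf8 stood at 839 CPM with Gzma and 179 without, and Lgals1 (galectin-1) at 1336 and 197 CPM.

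Other genes were found more often, or at a higher level, in cells without Gzma. Xcl1 was found in all 18 of them, and in 21 of the 28 with Gzma. In control it was found in every cell of both kinds (6 and 7). The difference in cells with a UMI thus comes from haplodeficient cells, at 12 of 12 without Gzma and 14 of 21 with it. In UMIs, control cells held 58 without Gzma and 43 with it, but 29 of the 58 were in 1 cell. Haplodeficient cells held 76 without Gzma and 116 with it. Ltb (lymphotoxin beta, a lymphoid organiser) was found in 15 of 18 without and 8 of 28 with Gzma, as 51 and 12 UMIs. Il7r was found in 7 and 3 cells, Itga1 in 6 and 2, and Rora, a factor of innate lymphoid cells, in 10 and 3. Cd200r1 was found in 6 of 18 and 0 of 28 cells. Tmem176a and Tmem176b, membrane protein genes, had 23 and 20 UMIs in cells without Gzma, and 0 and 1 in those with it. Klrc1 stood at 375 CPM without Gzma and 124 with, Cd226 (DNAM-1, an activating receptor) at 411 and 135 CPM, and Stat4, which signals from the interleukin 12 receptor, at 1520 and 715 CPM. Inpp4b and St6galnac3 stood at 948 and 1144 CPM without Gzma, and 176 and 155 CPM with it.

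Ncr1 was found in 27 of 28 cells with Gzma and 16 of 18 without, and Klrb1c in 21 and 13. Ccl5, Nkg7, Klrd1, Fcer1g, Txk and Tyrobp did not pass the size rule between the 2 kinds of cell. Trbc1 was found in 20 of 28 and 10 of 18 cells, and Trac in none. The 18 cells without Gzma were not settled as natural killer cells or ILC1. Among them Eomes was found in 0 cells, Itga2 in 6, Il7r in 7 and Itga1 in 6. Shares and levels of the core count these cells.

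**Figure D5:**
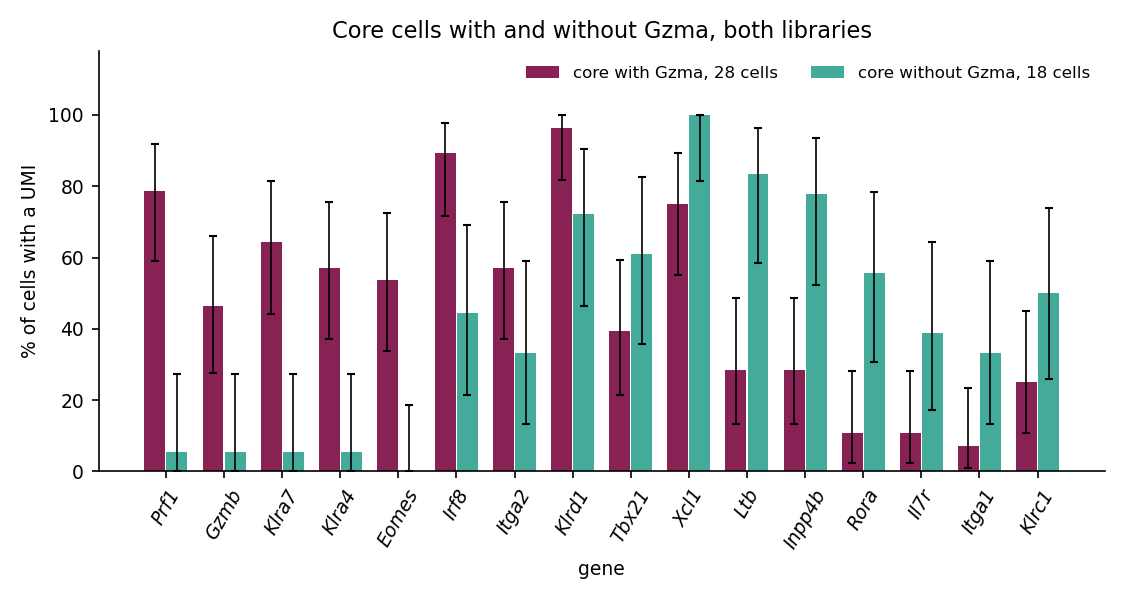
Bars are the percentage of core cells with a UMI of each gene, for 28 cells with Gzma and 18 without, both libraries together; error bars are Clopper-Pearson 95% intervals. Eomes stands at 53.6% and 0%, Prf1 at 78.6% and 5.56%, and Ltb at 28.6% and 83.3%.

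Over all genes 43 of 750 passed the size rule between cells with and without Gzma (5.73%), 23 higher with it (3.07%) and 20 lower (2.67%). The genes were called on the pooled cells, so neither library is an independent check of them. The 23 higher genes include 7 mitochondrial genes, whose level moved with 2 control cells of 47.7% and 28.6% mitochondrial UMIs. Without those cells 37 genes passed, 34 of them among the 43, of a number with enough UMIs that is not given here. Of the mature natural killer genes 3 of 3 with enough UMIs were higher with Gzma, 2 past the rule, and of the ILC1 residency genes 4 of 4 were lower, 3 past the rule (medians 3.19 and -2.01, beside -0.01 over all 750 genes).

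The cells of each library are given apart, since the pooled values rest more on the larger one. In haplodeficient core cells Prf1 was found in 16 of 21 cells with Gzma and 1 of 12 without, Klra7 in 13 and 0, Eomes in 12 and 0, Ltb in 4 and 12, and St6galnac3 in 3 and 12. In control core cells Prf1 was found in 6 of 7 with Gzma and 0 of 6 without, Eomes in 3 and 0, Klra4 in 5 and 1, Ltb in 4 and 3, with 7 UMIs in each kind, Itga1 in 1 and 1, and St6galnac3 in 1 and 5. The Ltb and Itga1 differences, and that in cells with a Xcl1 UMI, rest on the haplodeficient library. Cells with Gzma made up 53.8% (25.1 to 80.8) of control core cells and 63.6% (45.1 to 79.6) of haplodeficient ones, intervals that overlap.

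Between the libraries, the 66 cells gave 344 of 3608 genes past the size rule (9.53%), 171 higher in the haplodeficient library (4.74%) and 173 lower (4.79%). The leading genes were those of other cells: Mgp, Tagln, Meis2, Acta2, Cxcl9, Col1a2, S100g and Emcn higher, and Slc12a1, Slc12a3, Erbb4, Umod, Kap, Shank2, Sema3c and Tnip3 lower. Slc12a1, a loop of Henle transporter gene, had 116 UMIs in the control cells and 4 in the haplodeficient ones, and Mgp had 1 and 629. Cells outside the core hold most of the UMIs behind these values.

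In core cells 34 of 751 genes passed the rule between libraries (4.53%), 13 higher in the haplodeficient library (1.73%) and 21 lower (2.80%). Ccl5, Klra1, Txk (a Tec family kinase, at 397 and 813 CPM) and Rpl29 were among the higher ones. Klra1 had 1 UMI in control and 31 in haplodeficient cells, while Klra4 was lower, at 814 and 306 CPM. How reads were split between these near-identical copies was not tested. Of the 8 lowest, 7 were mitochondrial genes. The mitochondrial share had a median of 3.15% in control core cells, but the 2 cells named above reached 47.7% and 28.6%, against at most 3.78% in the haplodeficient core.

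Leaving those 2 cells out, 21 genes passed, of a number with enough UMIs that is not given here. Ccl5 stood at 4645 CPM in the 11 remaining control cells and 10358 CPM in the haplodeficient ones, and still passed, as did Klra1 and Klra4, while Txk, at 405 and 813 CPM, did not. Gzma, at 4510 and 4495 CPM, and Prf1, at 513 and 488 CPM, were then close between the libraries, with Gzma in control still resting on 1 cell. The group values that follow use all 13 control core cells, those 2 included. The main killing genes with enough UMIs gave 0 higher and 1 lower of 8 past the rule in the core (Gzmb, which overlaps without the control cell named above), with a median log2 ratio of 0.29 beside 0.17 over all genes. Adaptors gave 1 of 7 higher (median 0.76), inhibitory receptors 1 of 4 (median 1.16) and cytokine receptors 0 of 6 (median -0.16).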

How the data were processed

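Droplet single-cell libraries (3′ chemistry) of 2 mouse kidney suspensions were used, 1 per group. The deposited values were raw UMI counts per gene and barcode with no filter on cells, made by the authors with Cell Ranger 4 per the file headers, on mm10 per the submitters' processing notes; the annotation is not given in the sources used here. The libraries held 134190236 (control) and 114668145 UMIs. Barcodes of at least 500 UMIs and 200 genes and at most 50% mitochondrial UMIs were kept. Doublets were not removed: Scrublet (scanpy 1.11.5) at 0.8% per 1000 cells marked 715 and 804 cells, 2 of 18 and 4 of 48 members among them, and leaving them out was an alternative. UMIs were summed per class and library and given as CPM. Ratios used CPM plus 5. The size rule was run on simulated Poisson counts with known fold changes and no spread between cells. That run cannot show how often the rule calls a gene whose UMIs sit mostly in 1 cell. Intervals are 95% and cover counting error only. Of 32285 gene identifiers 99.6% matched GENCODE on GRCm38, and promoters came from RefSeq.

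The members, gene lists, named genes (all listed genes, the 25 leading genes, and the 8 highest and 8 lowest of each comparison) and alternatives were chosen with earlier results of these data known. Genes outside those, and the core and Gzma split, were chosen after their values were seen.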

Additional observations from a re-analysis of the deposited data

How the results depend on the processing

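The natural killer share ratio stayed between 2.28 and 3.76 for kept cells and between 1.04 and 1.23 for Ptprc-positive cells under the alternative cell rules run, and was 0.830 (0.833 for core cells) over Ptprc-positive cells with under 5 C1q UMIs. Genes past the size rule between libraries, 344 for all members, numbered 14 with cells thinned to 1000 UMIs, 561 with genes of at least 1 UMI, 34 in core cells and 21 in core cells with a mitochondrial limit of 25%. The number of genes with enough UMIs also changed, from 3608 for all members (9.53% passed) to 751 in core cells (4.53%). It is not given for the other settings, so these counts are not on the same base. Core cells, with and without that limit, were added after seeing the data. The granule gene median, 0.46, was -0.36 with at least 2 receptor UMIs, -0.33 with at least 3 support genes and -0.20 when thinned, and the adaptor median, 0.55, was -0.36 when thinned. Genes of other cells reversed: Sema3c was 0.94 and Erbb4 0.78 with at least 2 receptor UMIs; Sema3c was 1.07, Erbb4 0.66 and Shank2 0.51 with at least 3 support genes; Kap was 0.087 when thinned; Mgp was -2.37 and S100g -3.76 in core cells, and both were -2.68 with the mitochondrial limit. All control cells meeting the rule held only 1 Mgp and 4 S100g UMIs, and the haplodeficient core held 0 of Mgp. The core values of both genes thus rest on few UMIs and on the 5 CPM added, so their size is not read. The causes of these changes were not tested. With 13 control core cells, a gene under about 62.6 CPM can go undetected there. No paired analysis was possible because there is 1 library per group. Leaving out a replicate was likewise not possible.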
